A study of Mus musculus with 4 samples.

Results

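T-cell receptor signalling genes were examined in the mouse thymic lymphoma line T29 with and without a block of Notch-driven transcription. The pathway was represented by 41 genes, taken by symbol from the array's probe annotation, and each gene was read through its brightest probe set. Of these, 40 had a probe set naming that gene alone, out of 18193 genes on the array, and Lck was not analysed here. A mean over the 4 arrays of at least 4.81 on the log2 scale was required for testing. That value is the 40th percentile of all probe sets naming 1 gene. It left 37 pathway genes among 11581 tested genes, while Cd2, Cd6 and Txk lay below it.

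All 4 samples were T29 cells, described in the series' design text as Ikaros-deficient and in their titles as transduced with MigR1-MLER, and the design names an inducible dominant-negative Mastermind as the tool. Cells received ethanol (2 samples) or 100 nM 4OHT (2 samples) for 24 h. 4OHT, or 4-hydroxytamoxifen, is a ligand commonly used to activate proteins fused to the oestrogen receptor. Samples without the construct were not analysed here, so the action of the construct and any action of 4OHT itself cannot be told apart, and the results describe 1 cell line. The labels do not say whether replicates came from separate cultures, so a p-value here covers no more than the variation among these 4 samples, and that variation may be technical.

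When a T-cell receptor binds its ligand, the kinase LCK phosphorylates motifs in the CD3 and zeta chains, and these recruit the kinase ZAP-70. ZAP-70 phosphorylates the scaffolds LAT and SLP-76, which gather phospholipase C-gamma and exchange factors, and the signal divides into calcium and NFAT, diacylglycerol and Ras, and protein kinase C-theta and NF-kappaB branches. Notch acts alongside this machinery in early thymocytes, where it drives the T-cell programme up to the stage at which a first receptor is assembled. Mastermind is a co-activator of the Notch complex on DNA, whose binding protein RBPJ recognises a core sequence that Ikaros proteins also recognise.

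The treatment and the identity of the cells were checked first. Dtx1, a standard Notch read-out, was at 9.41 and 9.43 with ethanol and at 6.01 and 6.01 with 4OHT. It fell by 3.41 on the log2 scale (limma adjusted p = 0.000506). In all, 6 of 6 listed Notch read-outs fell, against 3.57% of all tested genes. The others were Hes1 (-1.39), Ptcra (-2.23), Nrarp (-1.44), Notch3 (-1.68) and Il2ra (-2.11). This list was chosen with earlier results of these data known, so its count is a description and no independent support. Among T-cell markers, Cd3d, Cd3e, Cd3g, Cd247 and Thy1 were above the testing floor and Cd5 and Cd2 were below it. The mean level of the 7 T-cell markers analysed lay between 9.86 and 9.91 with ethanol and was 9.84 on both 4OHT arrays. Of 34 markers of other lineages analysed, 13 passed that floor: 2 of 7 B-cell, 3 of 9 myeloid, 3 of 7 NK-cell, 1 of 3 erythroid and 4 of 8 stromal, epithelial or endothelial genes, with list means from 4.19 to 5.60. Of these 13, 2 rose and none fell. Gzma, a granzyme gene of cytotoxic cells on the NK-cell list, was at 12.80 and 12.56 with ethanol against 13.77 and 13.77 with 4OHT (adjusted p = 0.0121). Pecam1, an adhesion molecule gene on the list of stromal, epithelial and endothelial genes, was at 7.65 and 7.78 against 8.54 and 8.74 (adjusted p = 0.0165). Pdgfrb, also on that list, was at 8.65 and 8.65 with ethanol against 8.14 and 8.57 with 4OHT. The rest of the markers above the floor had means over the 4 arrays from 4.88 (Prf1) to 6.17 (Cd14). They were Pax5, Cd22, Csf1r, Cd14, Spi1, Prf1, Tbx21, Klf1, Krt5 and Epcam. The NK-cell receptor genes Ncr1, Klrd1 and Klrk1 and the endothelial gene Cdh5 were below the floor. The 3′ minus 5′ difference of control RNAs was read as a sign of RNA quality. For 18S RNA it differed between the groups and stood at 0.05 and 0.32 after ethanol but at 0.90 and 0.82 after 4OHT. The mRNA controls differed little, with Actb at 0.40 and 0.49 against 0.43 and 0.45, and Gapdh at -0.07 and 0.03 against -0.03 and -0.03. The part of these marker and RNA quality values in the results below was not tested.

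The pathway genes that passed the test were all higher with 4OHT. Of the 37 tested genes, 8 rose, none fell and 29 did not pass (limma, adjusted p under 0.05 over all tested genes). The 8 risers were Prkcq, Grap2, Cd247, Cd28, Ptprc, Dgka, Rasgrp1 and Themis, with folds from 1.41 to 2.23. They made up 21.6% of the tested pathway genes, where 3.9% of all tested genes rose and 3.57% fell, 7.47% in either direction. At an unadjusted p under 0.05, 12 pathway genes were higher and 1 lower, against 12.3% and 13.2% of all genes. The groups did not overlap, with 4OHT higher, for 21 pathway genes (56.8%, against 26.7% of all genes), and with 4OHT lower for 3 (30.2% of all genes).

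The median change of the 37 genes was 0.24 on the log2 scale, and that of all tested genes was -0.01. In all, 28 of the 37 had a change above 0, or 75.7%, compared with 47.7% of all genes. The median was 0.13 when each gene was read through the mean of its probe sets. Most calls of single genes needed all 4 arrays, among pathway genes as over all tested genes. With 1 array left out, 1 group has 1 sample, so only the size of the change is given. Each of the 8 kept its direction in every one of these fits. Prkcq lay between 1.07 and 1.24, Grap2 between 0.91 and 1.01, and the rest of the 8 between 0.46 and 0.79. In bulk RNA, more of a transcript per cell and more cells that carry it cannot be told apart.

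**Figure D1:**
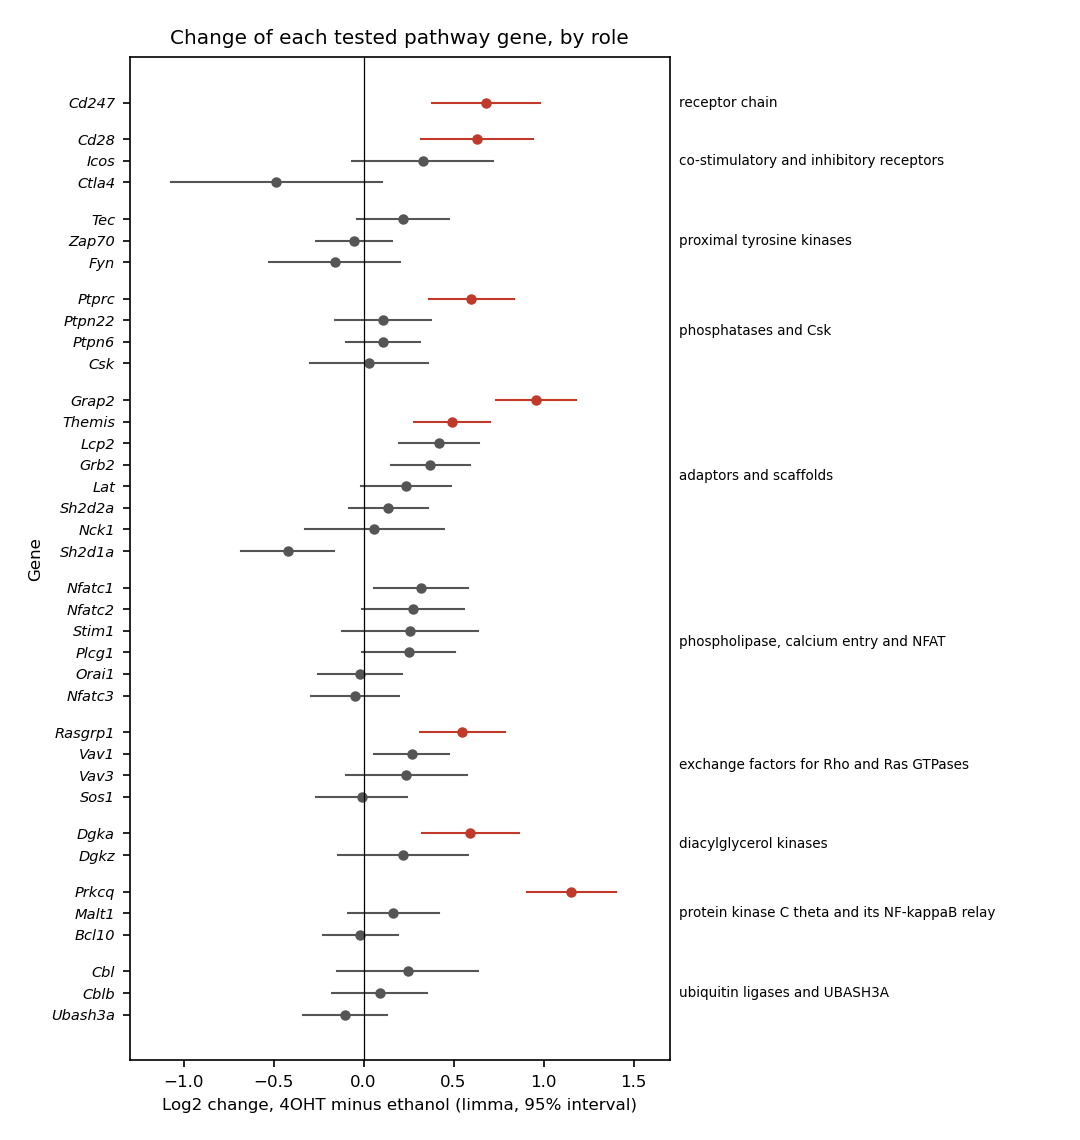
Change of the 37 tested pathway genes, grouped by role, as the log2 difference of 4OHT minus ethanol (x axis) with its 95% interval from limma over 2 arrays a group; red marks the 8 genes past the test. All red intervals lie above 0, and the 2 lowest points are Ctla4 and Sh2d1a, at -0.48 and -0.42.

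To let the regulatory sequence be read beside the expression values, the 250 bases before the annotated start were taken from RefSeq for called genes with the largest change that had an entry and for the called gene that held the RBPJ core. The promoter table (build GRCm38.p6) had entries for 32 of the 40 pathway genes analysed, and none for Cd28. Sequences run 5′ to 3′ towards the start site, and capitals mark TGGGAA, the core shared by RBPJ and Ikaros, or AGGAAG, an ETS motif, on either strand.
Prkcq, chr2:11172132-11172381, plus strand: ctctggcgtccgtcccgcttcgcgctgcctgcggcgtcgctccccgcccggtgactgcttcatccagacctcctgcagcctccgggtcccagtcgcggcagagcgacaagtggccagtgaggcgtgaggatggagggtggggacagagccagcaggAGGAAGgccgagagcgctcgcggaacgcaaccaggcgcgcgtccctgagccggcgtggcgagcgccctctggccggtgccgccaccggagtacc
Grap2, chr15:80623233-80623482, plus strand: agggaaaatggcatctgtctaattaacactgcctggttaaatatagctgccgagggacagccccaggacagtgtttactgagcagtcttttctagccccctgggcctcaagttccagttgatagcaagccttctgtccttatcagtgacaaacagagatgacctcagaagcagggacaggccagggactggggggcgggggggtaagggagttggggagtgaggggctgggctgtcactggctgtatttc
Cd247, chr1:165788431-165788680, plus strand: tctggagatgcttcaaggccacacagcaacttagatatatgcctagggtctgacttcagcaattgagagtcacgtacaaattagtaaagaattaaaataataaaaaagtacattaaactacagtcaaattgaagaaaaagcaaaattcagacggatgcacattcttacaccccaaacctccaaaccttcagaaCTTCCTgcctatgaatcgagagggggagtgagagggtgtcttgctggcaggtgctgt
Dgka, chr10:128744077-128744326, minus strand: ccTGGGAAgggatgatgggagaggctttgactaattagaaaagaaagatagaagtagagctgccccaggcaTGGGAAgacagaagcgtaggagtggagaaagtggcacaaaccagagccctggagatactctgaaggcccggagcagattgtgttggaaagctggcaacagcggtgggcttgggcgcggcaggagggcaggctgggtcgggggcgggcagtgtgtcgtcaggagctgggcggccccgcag

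The RBPJ core TGGGAA stood, on either strand, in 11 of 49 windows (22.4%), belonging to 10 genes, against 21.6% of all 32851 promoter windows of that length. Among the 7 called genes with an entry, it occurred in 1 of 12 windows, that of Dgka shown above, which holds 2 matches and precedes an inner start of that gene. The longer form GTGGGAA was in 3 windows (6.12%, against 5.42% of all), those of Zap70, Lat and Nck1, and in none of a called gene. No match says only that these letters are not in this window.

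The ETS motif AGGAAG was in 28 of 49 windows (57.1%) against 29.5% of all, and in 6 of the 12 windows of called genes. Some genes have several windows, which are not independent. By gene, the motif stood before 22 of 32 pathway genes and 4 of 7 called genes. Prkcq and Cd247 each hold 1 match and the Grap2 window holds none. These shares are a description of windows that differ in base composition: the median GC content was 59.2% before pathway genes and 52.4% over all windows. Of the other 5 motifs searched on both strands, ACCACA (RUNX) was in 8.16% of pathway windows against 14% of all, CAGGTG (E proteins) in 22.4% against 17.2%, CAGCTG in 6.12% against 13%, TGACTCA (AP-1) in 2.04% against 4.46%, and the short GGAA, which the first 3 motifs contain, in 91.8% against 93.4%.

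At the receptor, the zeta chain rose. Cd247, which encodes the zeta chain that carries most of the receptor's signalling motifs, was at 10.82 and 10.64 with ethanol and at 11.52 and 11.30 with 4OHT. Both 4OHT arrays were above both ethanol arrays, and the gene rose 1.60-fold (log2 change 0.68 ± 0.12 SE, limma adjusted p = 0.0347). Its call was lost with the mean of its probe sets (0.44, adjusted p = 0.0605; 0.00163 to 0.0605 over the alternatives that kept all arrays and 1 value per gene). None of the 3 CD3 chain genes rose. Cd3g, which encodes the gamma chain, was at 12.56 and 12.56 with ethanol against 11.90 and 12.09 with 4OHT and fell by 0.57 (adjusted p = 0.0356). Cd3d and Cd3e changed by -0.14 and -0.21 and did not pass (adjusted p = 0.541 and 0.331).

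Of the accessory receptors, 1 of 3 tested rose. Cd28, the main co-stimulatory receptor gene of T cells, was at 9.19 and 9.34 with ethanol against 9.76 and 10.03 with 4OHT, without overlap, and rose 1.55-fold (0.63 ± 0.12, adjusted p = 0.0446). Median centring of the arrays placed it just outside the threshold (adjusted p = 0.0507; 0.00275 to 0.0507 over the alternatives that kept all arrays and 1 value per gene). Icos, an inducible co-stimulator gene, was at 5.71 and 6.12 with ethanol against 6.16 and 6.33 with 4OHT (0.33, adjusted p = 0.262). Ctla4, which encodes the inhibitory receptor that competes for the ligands of CD28, was at 5.84 and 6.41 with ethanol against 5.42 and 5.86 with 4OHT; the groups overlapped and the change was -0.48 (95% interval -1.07 to 0.10, adjusted p = 0.265). Cd2, an adhesion receptor gene, lay between 3.45 and 3.84 on all arrays and Cd6, a CD5-related receptor gene, between 4.60 and 4.72, so neither was tested.

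None of the 3 tested proximal tyrosine kinase genes passed, a count near the share of all tested genes that did, 7.47%. Zap70, the kinase that binds the phosphorylated zeta chain, was bright and steady at 10.81 and 10.82 with ethanol against 10.73 and 10.80 with 4OHT (-0.05, 95% interval -0.26 to 0.16, adjusted p = 0.745). Fyn, a Src-family kinase gene, changed by -0.16 (interval -0.52 to 0.20) with overlapping groups. Tec, a Tec-family kinase gene, changed by 0.22 (interval -0.04 to 0.48, adjusted p = 0.251), and both 4OHT arrays were above both ethanol arrays. Txk, of the same family, was below the testing floor, at 4.30 and 4.52 with ethanol against 4.89 and 4.85 with 4OHT.

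Among phosphatases and CSK, Ptprc was the gene that rose. Ptprc encodes CD45, the receptor phosphatase that sets the activity of Src-family kinases. It was at 12.49 and 12.46 with ethanol against 12.99 and 13.15 with 4OHT and rose 1.51-fold (0.60 ± 0.09, adjusted p = 0.0295). The groups were well apart, but its call was lost with the mean of its 2 probe sets, of which the second was dim (0.46, adjusted p = 0.0596; 0.00387 to 0.0596 over the alternatives that kept all arrays and 1 value per gene). Csk, the kinase gene that opposes CD45, changed by 0.03, and the phosphatase genes Ptpn22 and Ptpn6 by 0.11 each. None of these 3 passed, with adjusted p-values from 0.468 to 0.914, and their 95% intervals lay within -0.30 and 0.38.

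The adaptors held 2 of the 8 risers, and 7 of 8 had a change above 0. Grap2, which encodes GADS, the adaptor that joins SLP-76 to LAT, was at 7.40 and 7.30 with ethanol against 8.33 and 8.29 with 4OHT. It rose 1.94-fold (0.96 ± 0.09, adjusted p = 0.0109), and its replicates differed by far less than its groups. Themis, a thymocyte protein gene needed for selection, was at 10.82 and 10.82 with ethanol against 11.29 and 11.34 with 4OHT and rose 1.41-fold (0.49 ± 0.08, adjusted p = 0.0323). Its replicates were close on both sides.

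Lcp2 and Grb2 were just outside the threshold. Lcp2, which encodes SLP-76, was at 10.15 and 10.26 with ethanol against 10.65 and 10.60 with 4OHT (0.42 ± 0.09, adjusted p = 0.0522), and Grb2, a general adaptor gene, at 10.03 and 9.92 and then 10.35 and 10.35 (0.37 ± 0.09, adjusted p = 0.0679). Neither passed, and neither pair of groups overlapped. Both passed with an intensity trend, at adjusted p-values of 0.0198 and 0.0314 (0.0183 to 0.073 and 0.029 to 0.0996 over the alternatives that kept all arrays and 1 value per gene). Lat, the membrane scaffold gene, was at 12.90 and 12.93 with ethanol against 13.25 and 13.06 with 4OHT (0.24, adjusted p = 0.212). Sh2d2a and Nck1, both adaptor genes, changed by 0.14 and 0.06. Sh2d1a, which encodes the SLAM-associated adaptor SAP, went the other way: it was at 10.12 and 10.23 with ethanol against 9.67 and 9.84 with 4OHT (-0.42 ± 0.10, adjusted p = 0.073), did not pass, and was the 1 pathway gene lower at an unadjusted p under 0.05. An intensity trend called it lower (adjusted p = 0.0377; 0.016 to 0.0974 over the alternatives that kept all arrays and 1 value per gene).

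**Figure D2:**
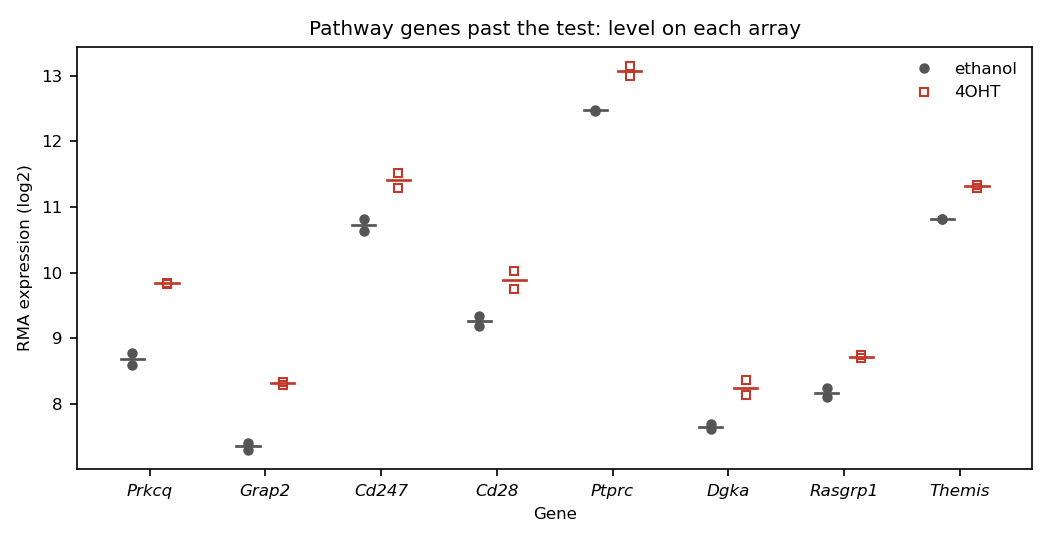
RMA expression on the log2 scale (y axis) of the 8 pathway genes past the test (x axis), with 1 point per array and a bar at the mean of the 2 arrays of each group; grey circles are ethanol and red squares 4OHT. For each gene both 4OHT arrays lie above both ethanol arrays, as for Prkcq at 9.84 and 9.83 against 8.59 and 8.77.

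In the calcium branch, none of 6 genes passed, which for so few genes is near the 7.47% of all tested genes that passed. Nfatc1, a calcineurin-activated transcription factor gene, was nearest, at 7.93 and 8.11 with ethanol against 8.28 and 8.40 with 4OHT (0.32 ± 0.10, adjusted p = 0.134), without overlap. Nfatc2 changed by 0.27 and Plcg1, the phospholipase gene, by 0.25 (adjusted p = 0.207 for both). Stim1, the calcium sensor gene of the endoplasmic reticulum, changed by 0.26 with overlapping groups. Orai1, the channel gene that STIM1 opens, and Nfatc3 were at -0.02 and -0.05.

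The diacylglycerol branch had risers with opposite roles. Rasgrp1, a Ras exchange factor gene activated by diacylglycerol, was at 8.10 and 8.24 with ethanol against 8.70 and 8.74 with 4OHT and rose 1.46-fold (0.55 ± 0.09, adjusted p = 0.0327). Dgka, a kinase gene whose product consumes diacylglycerol, was at 7.62 and 7.69 with ethanol against 8.36 and 8.14 with 4OHT and rose 1.51-fold (0.59 ± 0.11, adjusted p = 0.0359). In both genes the arrays of the groups were apart. Dgkz, the second such kinase gene, overlapped between groups (0.22, adjusted p = 0.4). Of the other exchange factor genes, Vav1 was at 9.24 and 9.24 with ethanol against 9.49 and 9.51 with 4OHT (0.27 ± 0.08, adjusted p = 0.118), Vav3 changed by 0.24 (adjusted p = 0.328), and Sos1, which GRB2 brings to the membrane, by -0.01.

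Read through the brightest probe set, Prkcq had the largest change of the 37 pathway genes; with the mean of probe sets Grap2 was at 1.20 and Prkcq at 1.15. It encodes protein kinase C-theta, which is activated by diacylglycerol and passes the signal to NF-kappaB. It was at 8.59 and 8.77 with ethanol against 9.84 and 9.83 with 4OHT and rose 2.23-fold (1.15 ± 0.10, adjusted p = 0.01). Its relay partners did not pass the test. Bcl10, a scaffold gene of the NF-kappaB relay, changed by -0.02 (95% interval -0.22 to 0.19), and Malt1, its protease partner gene, by 0.17 (interval -0.09 to 0.42, adjusted p = 0.36).

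No ubiquitin ligase gene of the list passed, and with 7.47% of all tested genes called, that is near the share of all genes. Cbl and Cblb, whose products mark active receptors and kinases for degradation, changed by 0.24 and 0.09, with overlapping groups (adjusted p = 0.383 and 0.638). Ubash3a, which encodes a phosphatase-like partner of CBL, changed by -0.10 (adjusted p = 0.529).

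Agreement between probe sets of the same gene varied. Several probe sets were present for 28 of the 40 genes, and 41 probe sets other than the brightest were tested, from 26 genes. Of these, 29 changed in the same direction as the brightest and 12 in the opposite one. When all 20967 probe sets above the floor were fitted together, a choice made after seeing the data, 5 of 78 pathway probe sets rose and none fell, where 2.43% of all probe sets rose and 1.59% fell. They belonged to 4 genes: Prkcq, Ptprc, Rasgrp1, and Grap2 with both of its probe sets. The brightest probe sets of Cd247, Cd28, Dgka and Themis did not pass in that fit, with adjusted p-values from 0.0521 to 0.0646.

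Among the called genes, each further probe set that was tested had a change above 0. The second Grap2 probe set was at 6.68 and 7.24 with ethanol against 8.55 and 8.26 with 4OHT, a larger change of 1.44 (adjusted p = 0.0355 in that fit). The 3 further Rasgrp1 probe sets changed by 0.67, 0.80 and 0.53, and the 3 further Themis probe sets by 0.61, 0.48 and 1.07. The second Cd28 probe set changed by 0.64, and the 2 further Cd247 probe sets above the floor by 0.76 and 0.26. Cblb, which was not called, had changes of 0.09 and 0.04 in its 2 brightest sets and 0.64 in another. Dgka and Prkcq had 1 probe set each, so they had no second reading, and the second Ptprc probe set was below the floor.

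**Figure D3:**
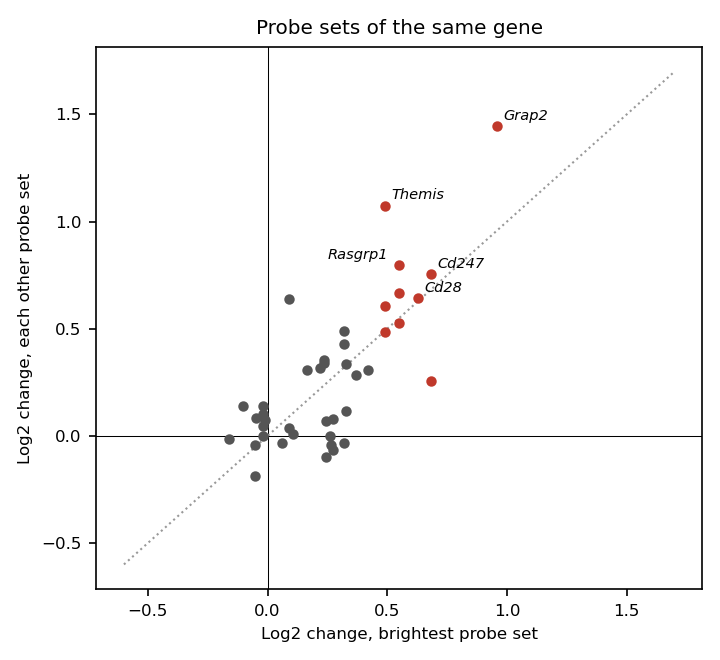
Log2 change of each tested further probe set (y axis, 41 points) against that of the brightest probe set of the same gene (x axis), with red for genes past the test and a dotted line of equality. All red points lie above 0 on both axes, and the Grap2 point, at 0.96 and 1.44, lies farthest from the origin.

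A second list held 64 further genes of the pathway, of which 54 were analysed and 52 tested. Like the first list, it was chosen with earlier results of these data known, so its shares are a description and no independent support. In this list 10 genes rose (19.2%, against 3.9% of all tested genes), 1 fell and 41 did not pass, with a median change of 0.17. Most of the risers were listed as kinase, phosphatase and adaptor genes, of which 7 of 19 rose (36.8%, against 3.9% of all tested genes). All 19 had a change above 0, against 47.7% of all tested genes. Dok2, an adaptor gene that restrains Ras signalling, rose 2.64-fold (1.40 ± 0.09, adjusted p = 0.005), from 7.97 and 7.94 to 9.42 and 9.29. Sla, which encodes the adaptor SLAP that promotes turnover of the receptor, was at 10.76 and 10.78 with ethanol against 11.79 and 12.02 with 4OHT and rose 2.20-fold (adjusted p = 0.0109).

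The remaining risers of that group were Sla2 (1.93-fold), related to Sla, Tespa1 (1.74-fold), a thymocyte signalling gene, Sit1 (1.69-fold), a transmembrane adaptor gene, Skap1 (1.50-fold) and Fyb (1.37-fold), both linked to integrin activation. Pdcd1, which encodes the inhibitory receptor PD-1, rose 1.81-fold from 5.41 and 5.01 to 6.15 and 5.98, and the co-receptor gene Cd8a 1.78-fold. In the calcium group Itpr2, an inositol trisphosphate receptor gene, rose 1.69-fold and was the 1 riser of 10. None of 9 Ras, ERK and PI3K genes and none of 6 NF-kappaB relay genes passed in limma, where 7.47% of all tested genes did. At an unadjusted p under 0.05, there were 2 higher and 1 lower in the former and none in the latter. Over all tested genes, 12.3% were higher and 13.2% lower at that threshold. Single settings ended some calls: Fyb did not pass when dim genes were kept, Cd8a and Tespa1 did not with the mean of probe sets, and Itpr2 did not without probe sets marked for cross-hybridisation. With 1 array left out, most calls of this list were lost, as were most calls over all tested genes. The call of Cd3g, the gene that fell, was among those lost.

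**Figure D4:**
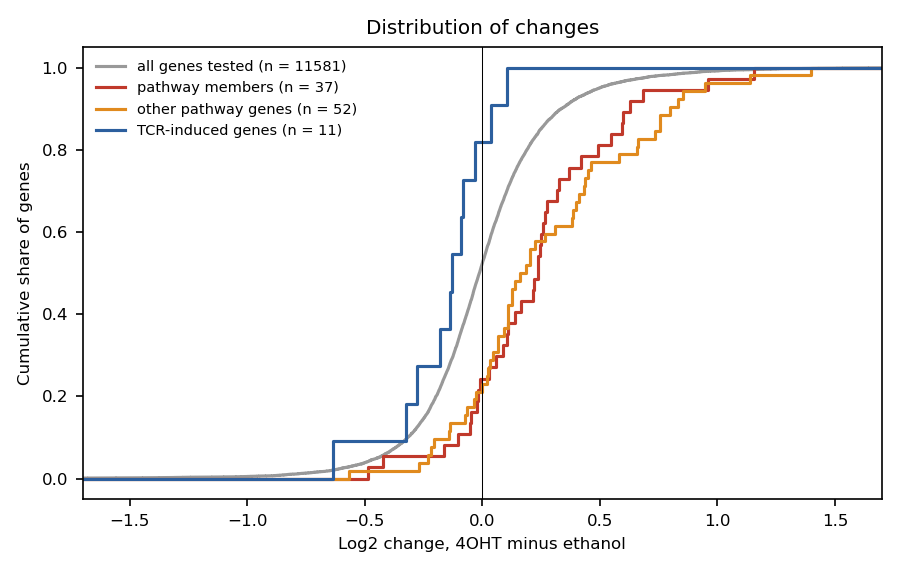
Cumulative share of genes (y axis) against the log2 change of 4OHT minus ethanol (x axis) for all 11581 tested genes, the 37 pathway genes, the 52 further pathway genes and the 11 genes induced by receptor stimulation. Both pathway curves lie to the right of the curve of all genes, with medians of 0.24 and 0.17 against -0.01, and the median of the induced genes is -0.13. The gene lists were chosen with earlier results of these data known.

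Genes that T cells switch on after receptor stimulation were listed separately. None of the 11 tested passed, against 7.47% of all tested genes in either direction, so the count of 0 is near that share. Of 16 listed, 11 were tested with limma; at an unadjusted p under 0.05, none was higher and 2 were lower, Nfkbid (-0.33, adjusted p = 0.151) and Spry1 (-0.28, adjusted p = 0.144), where 13.2% of all tested genes were lower at that threshold. Their median change was -0.13, and 9 of 11 had a change below 0, as did 6062 of all 11581 tested genes. Nr4a1, an orphan receptor gene used as a read-out of receptor signal strength, was at 5.42 and 5.47 with ethanol against 5.45 and 5.26 with 4OHT, with overlap. Egr1, an immediate early gene, was at 6.07 and 7.81 with ethanol against 5.77 and 6.85 with 4OHT (adjusted p = 0.569), so its replicates differed more than its groups. The activation marker gene Cd69 and the cytokine genes Il2 and Ifng had means below the testing floor. Cd69 was at 5.38 on the array of 4OHT replicate 2 and between 4.32 and 4.60 on the other 3.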

How the data were processed

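Array expression was compared between 2 ethanol and 2 4OHT samples of T29 cells. The deposited values are log2 expression values that the authors made with RMA, per the submitters' processing notes, 1 per probe set and array; the RMA version was not given in the sources used here, nor was a genome build. RMA gives no detection call, and changes near background can be understated. Separately, the number of arrays, 2 in each group, limits the precision. Of 45101 probe sets, 34945 named 1 gene in the platform annotation; 932 with several genes, unnamed ones and 64 controls were left out. The brightest probe set per gene was fitted with limma 3.58.1 in R 4.3.3 (lmFit, eBayes, no block), with Benjamini-Hochberg adjustment over 11581 genes. SE is limma's. The fit was run on data simulated from limma's own model, without a shared deviation of same-numbered samples. That run checks the code and not whether the model suits these arrays. Alternatives were other filters, scalings, probe set rules and priors, a replicate block, another threshold and each array left out. Pathway genes with an unadjusted p under 0.05 were given in every sample, and called genes of the further pathway and induced lists were named. Members, lists and motifs were chosen with earlier results of these data known.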

Additional observations from a re-analysis of the deposited data

How the results depend on the processing

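Direction held for the 8 called pathway genes in all alternatives run. The count of higher pathway genes stayed within 6 to 10 under every alternative that kept all arrays and 1 value per gene. It was 4 when all probe sets were fitted together. Most of these calls were lost when 1 array was left out, as were most calls over all tested genes. Such a fit has 1 residual degree of freedom, as has the fit with the replicate block. The count of lower pathway genes, 0 in the reported fit, was 1 (Sh2d1a) with an intensity trend, also once a robust prior was added to it, and at an adjusted p under 0.1, and 2 (Sh2d1a and Ctla4) with the replicate block. Their median change was 0.13 with the mean of probe sets and 0.17 to 0.25 with 1 array left out. In the further pathway list, higher genes numbered 20 with the replicate block, 16 at an adjusted p under 0.1 and 0 to 3 with 1 array left out, and lower genes 0 with any 1 array left out. The replicate block, also with 1 residual degree of freedom, called 1 induced gene lower, Egr1. Same-numbered samples deviated together (r = 0.34 over 11581 genes and 0.56 over the 37 pathway genes), but with 2 numbers and no statement in the labels the pairing is a hint only; with the block the pathway list had 10 higher and 2 lower genes. Among all genes it had 1104 higher and 1031 lower, against 452 and 413.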
